A study of Camelina sativa with 41 samples.

Results

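Csa05g079950, Csa11g015700, Csa11g072230, Csa06g004330, Csa13g011780 and Csa17g034220 are 6 transcription factor genes of the hexaploid oil crop Camelina sativa, of 22 that the study assayed for DNA binding and of 89418 genes in its count table. They were picked by ID, as the assayed factors whose messenger RNA was moderately more abundant in older seeds. The values that chose them are therefore the seed levels given here, which are a description and carry no test. Wild-type (WT) seeds of the cultivar Suneson were compared at ages of 5, 8 and 11 DPA (DPA counts days since flowering), with 3 biological replicates per age. All seeds came from plants of 1 cultivar grown in a greenhouse, and the labels name no genotype or treatment that differs between the ages.

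Transcription factors bind short DNA motifs and set how strongly nearby genes are read. In seeds of the mustard family, networks of such factors accompany the passage from early embryo growth to the filling of the seed with oil and protein. DNA affinity purification sequencing (DAP-seq) shows where a factor made outside the plant holds on to fragments of genomic DNA. Here the factors carried a Halo tag, and the fragments came from pooled leaves, from DNA that had been amplified, which removes methylation. The sources used here do not state whether duplicate assays were pooled into a list. No file names the genes, and 0 of the IDs matched the 98741 genes of the RefSeq table of this species, so the families of the 6 factors are not given and no sequence is shown. The genome holds similar copies of most genes, and how reads that fit several copies were counted is not stated, so each level may hold reads of a copy or lack some of its own.

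Library totals ran from 15659011 counts (5 DPA replicate 1, a single sequencing run) to 46863553 (11 DPA replicate 1). Replicates 1 and 2 at 5 DPA list the same second run, equal in all 89418 genes, and it was counted with replicate 2 only. In the first runs, the 11 DPA replicate 1 library lay well apart within its age group, at a chi-square per degree of freedom of 21.2 and 17.7 against replicates 2 and 3, which differed by 8.63 from each other. In whole seeds, a change in the share of cells that express a gene and a change in messenger RNA per cell cannot be told apart.

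All 6 factors had more messenger RNA at 11 than at 5 DPA, by 2.62-fold to 5.45-fold, and their courses differed. The upper end rests on few counts at 5 DPA. The log2 change was 2.45 (SE 0.46) for Csa17g034220, or 3.23 without 5 DPA replicate 3, and 2.25 (SE 0.58) for Csa13g011780, or 2.96 without 5 DPA replicate 2. Csa05g079950 stood at nearly the same level at 5 and 8 DPA and was higher at 11 DPA. Csa11g015700 and Csa11g072230 were higher at each step, by 0.83 to 1.31 on the log2 scale. Csa06g004330, Csa13g011780 and Csa17g034220, the scarce ones, had few counts at 5 DPA. By the estimates, the larger part of the log2 change came before 8 DPA in Csa06g004330 and Csa17g034220. There the later step minus the earlier one was -0.96 and -0.98. In Csa13g011780 the steps differed by 0.52, less than the SE of 0.59 of the earlier one. Both steps share the 8 DPA libraries, so the SE of such a difference exceeds that of either step. The differences between steps were not tested.

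Csa05g079950 (1342 bases long in the authors' table) was the most abundant of the 6 per unit of length. In CPM (counts scaled to a library total of 1000000), its level in replicates 1, 2 and 3 was 9.77, 10.3 and 14 at 5 DPA, 13.7, 12.3 and 12.3 at 8 DPA, and 41.8, 22.5 and 23.2 at 11 DPA. The 5 and 8 DPA libraries overlap, and every 11 DPA library lies above both. The means were 11.4 ± 2.32, 12.8 ± 0.833 and 29.1 ± 10.9 CPM (SD, n = 3 each). The log2 change fitted by edgeR was 0.11 (standard error, SE, 0.26) for 8 versus 5 DPA and 1.28 (SE 0.25) for 11 versus 8 DPA. The high library at 11 DPA is the one that stands apart from its age group. Without it the log2 change for 11 versus 8 DPA was 0.89, and the 2 remaining libraries still lay above every 8 DPA library.

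Csa11g015700 (2826 bases) differed by about the same amount at each step. It measured 8.24, 8.25 and 8.54 CPM at 5 DPA, 16.3, 14.3 and 19.1 CPM at 8 DPA, then 38, 33.1 and 26.3 CPM at 11 DPA. No library of an age overlaps the next age. At 5 DPA the replicates differed by less than counting error alone would give, with a coefficient of variation (CV) of 2.07% against 6.69% from counting. The log2 change was 0.94 (SE 0.16) for 8 versus 5 DPA and 1.06 (SE 0.15) for 11 versus 8 DPA.

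Csa11g072230, at 684 bases the shortest of the 6, followed it closely. It measured 1.66, 1.6 and 1.22 CPM at 5 DPA, 2.50, 2.54 and 3.08 CPM at 8 DPA, then 6.91, 6.27 and 5.92 CPM at 11 DPA. Again no age overlaps the next. Its replicates varied little beyond counting error at every age, with a CV of 15.9%, 12.1% and 7.94% against 15.8%, 9.58% and 5.93% from counting. The log2 changes were 0.83 (SE 0.17) and 1.31 (SE 0.15) for the earlier and later step. The ratio of the Csa11g015700 to the Csa11g072230 level, each per unit of length, stayed between 1.08 and 1.69 in all 9 libraries.

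Csa06g004330 (2809 bases) rested on 64, 235 and 379 counts at 5, 8 and 11 DPA. It measured 0.383, 0.968 and 0.453 CPM at 5 DPA, 1.5, 1.95 and 2.38 CPM at 8 DPA, then 3.09, 2.51 and 2.87 CPM at 11 DPA. The ages do not overlap, though the lowest 11 DPA library is only just above the highest 8 DPA one. The log2 change was 1.58 (SE 0.33) for 8 versus 5 DPA and 0.62 (SE 0.29) for 11 versus 8 DPA. The first value depends on 5 DPA replicate 2, the highest of its age, without which it was 2.12.

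Csa13g011780 (3199 bases) was the least abundant by count. It had 0, 19 and 11 counts in the 5 DPA libraries, or 0, 0.484 and 0.249 CPM, where the library without a count allows up to 0.192 CPM (a floor of 3 counts, which covers counting error only). It measured 1.08, 0.725 and 0.496 CPM at 8 DPA, then 1.49, 1.26 and 1.21 CPM at 11 DPA. The 11 DPA libraries lie above the rest, while the lowest 8 DPA library and the highest 5 DPA library are all but equal, and change places when libraries are scaled by TMM (trimmed mean of M-values). The log2 change was 1.39 (SE 0.59) for 8 versus 5 DPA, or 2.11 without 5 DPA replicate 2, and 0.86 (SE 0.51) for 11 versus 8 DPA.

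Csa17g034220 (4472 bases), the factor whose peak list was not analysed here, had 1, 10 and 24 counts at 5 DPA. It measured 0.0639, 0.255 and 0.544 CPM at 5 DPA, 1.21, 0.747 and 1.41 CPM at 8 DPA, then 1.58, 1.98 and 1.74 CPM at 11 DPA. No age overlaps the next. The log2 change was 1.71 (SE 0.47) for 8 versus 5 DPA, or 2.50 without 5 DPA replicate 3, and 0.73 (SE 0.40) for 11 versus 8 DPA.

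**Figure D1:**
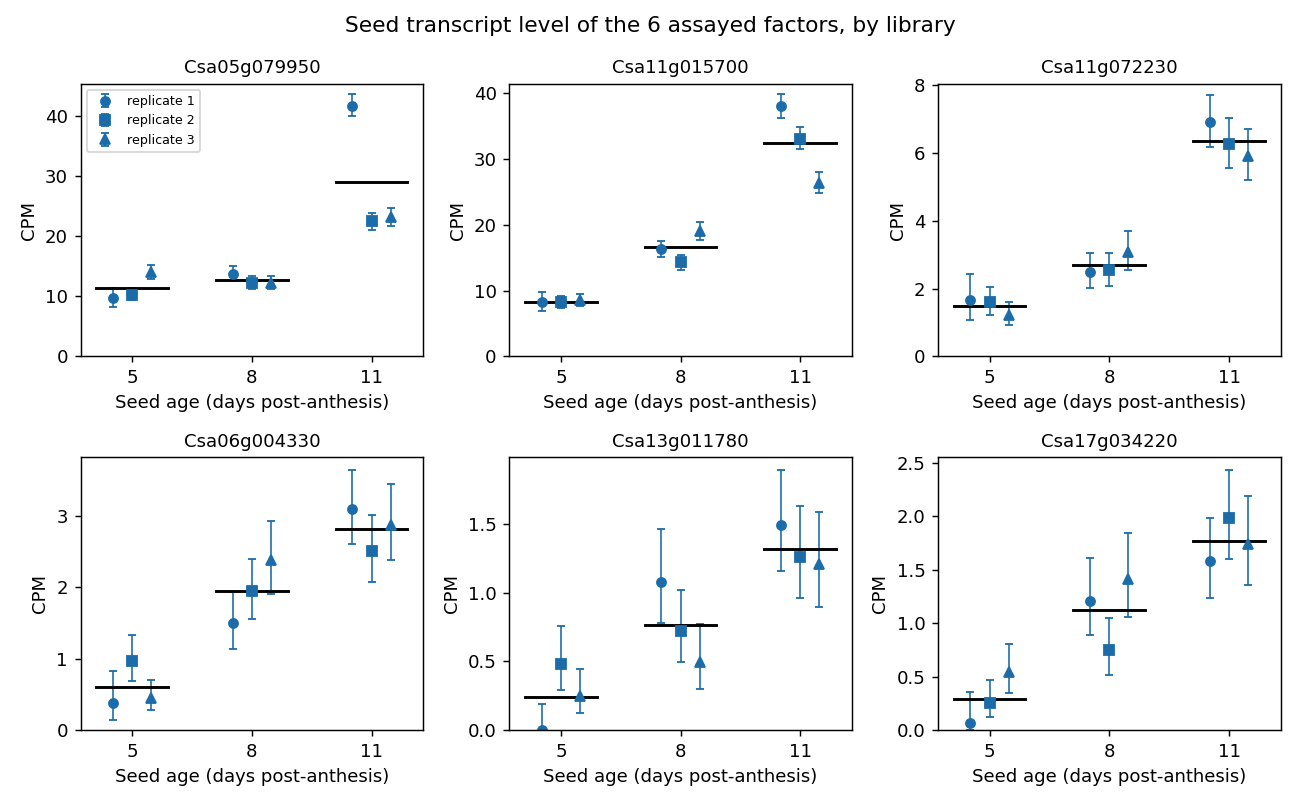
Level of each factor in CPM (y axis, from 0) by seed age in days post-anthesis (x axis). Each point is 1 library with its exact 95% Poisson interval, which covers counting error only (the library at 0 has a bar up to its floor of 3 counts), symbols mark the replicates and black lines the mean of 3; Csa05g079950 is the one whose 11 DPA libraries part, at 41.8 CPM in replicate 1 against 22.5 and 23.2 CPM.

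Read as counts of separated groups, 6 of 6 factors had every 11 DPA library above every 5 DPA library, as did 32.2% of the 63017 genes tested. For 11 versus 8 DPA it was again 6 of 6, against 28.2% of all genes, or 5 with the first sequencing run alone. In that run Csa06g004330 had 2.02 CPM in 11 DPA replicate 3, against 2.21 and 2.25 CPM in 8 DPA replicates 2 and 3. For 8 versus 5 DPA it was 4 of 6, against 26.5%. The exceptions at 8 versus 5 DPA were Csa05g079950 and Csa13g011780, and without TMM scaling Csa05g079950 alone. A total of 4 factors were separated at both steps, against 10.7% of genes. The factors were chosen for being higher with age, so these counts are not evidence that they stand apart from other genes.

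The timing differed between the factors. The change from 5 to 8 DPA made up 7.99% of the whole log2 change in Csa05g079950, 38.8% in Csa11g072230 and 47.1% in Csa11g015700. It made up 61.7% in Csa13g011780, 70.1% in Csa17g034220 and 71.8% in Csa06g004330. With each library left out in turn, the share ran from 1.42% to 19.5% in Csa05g079950, from 34.3% to 51.9% over the next 2 and from 62.4% to 79.4% over Csa17g034220 and Csa06g004330. In Csa13g011780 it ran from 47.8%, without 8 DPA replicate 1, to 72.3%, so which step was larger depended on that library. For Csa05g079950 it was 1.42% without 5 DPA replicate 1, 2.59% without 5 DPA replicate 2, 19.5% without 5 DPA replicate 3 and 4.45% without 8 DPA replicate 1. The 3 factors with the higher shares are those with few counts at 5 DPA, at 64, 30 and 35 in all, against 1177, 830 and 143 for the other 3. The part of the low counts in that share was not tested.

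**Figure D2:**
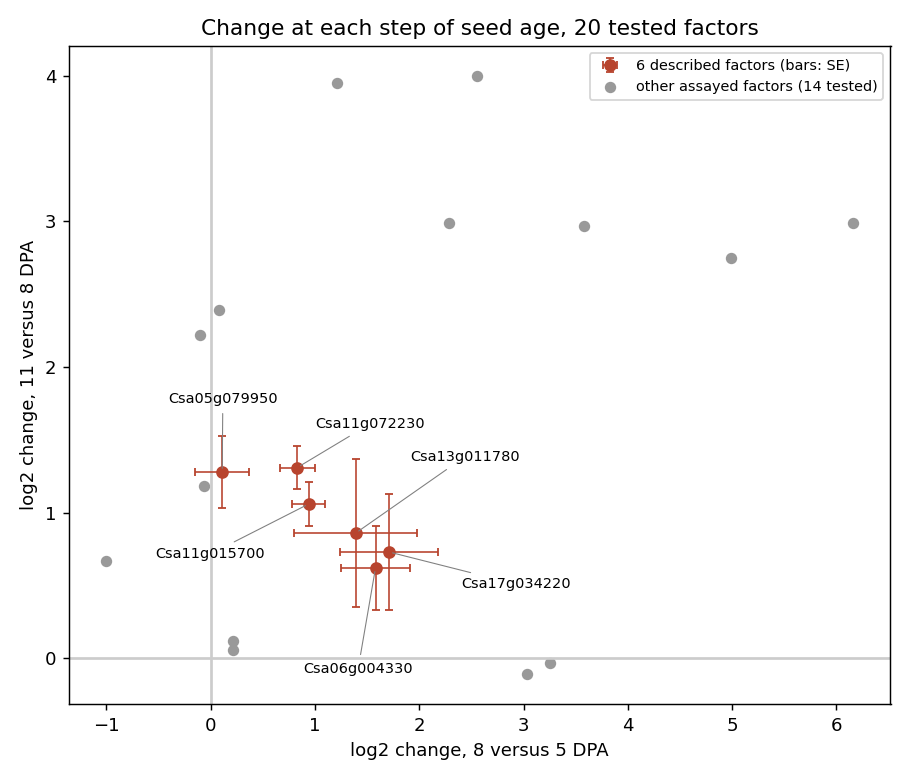
Log2 change for 8 versus 5 DPA (x axis) and 11 versus 8 DPA (y axis) from the edgeR fit, for the 6 factors with their SE (red) and the 14 other factors that could be tested (grey). The 6 lie in a band from Csa05g079950, with 0.11 and 1.28, to Csa17g034220, with 1.71 and 0.73; both axes share the 8 DPA libraries, so the 2 values of a gene are not independent.

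Set among all assayed factors, the 6 held the middle. They were picked for moderate rises in these same data, so this place, and their range at each step, reflect that choice. Of the 22 factors, 20 passed the filter on low counts, these 6 among them. For 11 versus 5 DPA the 6 had log2 changes of 1.39 to 2.45 with a median of 2.17, against a median of 3.07 for the 14 others and 0.0026 for all genes tested. Just below them came Csa19g005080 at 1.12, and just above them Csa13g021450 at 2.47. Of the others, 9 lay above Csa17g034220, 4 lay below Csa05g079950, and Csa08g011090 at 2.12 lay between. The tests of edgeR (adjusted p under 0.05) called 12 of the 14 others higher at 11 than at 5 DPA, against 29.8% of all genes. They called 8 of 14 higher for 8 versus 5 DPA, against 18.1%, and 8 of 14 higher for 11 versus 8 DPA, against 20.8%. They called none (0) of the 14 lower in any comparison, against 17.5%, 19.7% and 29.1% of all genes for 8 versus 5, 11 versus 8 and 11 versus 5 DPA. The study chose which factors to assay, and a gene can pass the filter on its 11 DPA libraries alone. The counts for the 14 are therefore no evidence that such factors rise with age more than other genes. At the later step the 6 factors spanned a narrow range, from 0.62 to 1.31, with 8 others above it and 4 below.

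The levels spread widely. Per kilobase of the length in the authors' table, Csa05g079950 stood at 8.47 ± 1.73, 9.52 ± 0.621 and 21.7 ± 8.16 CPM per kb at 5, 8 and 11 DPA (SD, n = 3). Csa11g015700 followed with 2.95 ± 0.0610, 5.86 ± 0.854 and 11.5 ± 2.07 CPM per kb, and Csa11g072230 with 2.19 ± 0.347, 3.96 ± 0.478 and 9.31 ± 0.740 CPM per kb. Csa06g004330 had 0.214 ± 0.114, 0.691 ± 0.157 and 1.01 ± 0.106 CPM per kb. Csa13g011780 had 0.0764 ± 0.0757, 0.240 ± 0.0924 and 0.413 ± 0.0475 CPM per kb, and Csa17g034220 had 0.0643 ± 0.0540, 0.251 ± 0.0762 and 0.395 ± 0.0454 CPM per kb. At 5 DPA these last 2 means depend on single libraries. That of Csa13g011780 was 0.115 CPM per kb without replicate 1 and 0.039 without replicate 2, and that of Csa17g034220 was 0.0356 without replicate 3. Without replicate 2 of both, Csa17g034220 was the higher, at 0.068.

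The order was thus Csa05g079950, Csa11g015700, Csa11g072230 and Csa06g004330 at every age. Below them came Csa13g011780 and Csa17g034220, with Csa17g034220 above at 8 DPA and below at 5 and 11 DPA, and their replicates overlapped at every age. Replicates of Csa11g015700 and Csa11g072230 were separate at 5 and 8 DPA and overlapped at 11 DPA, and those of Csa06g004330 and Csa13g011780 overlapped at 5 DPA. The largest gap lay between Csa11g072230 and Csa06g004330, at 10.2-fold, 5.73-fold and 9.26-fold. At 11 DPA the top 3 exceeded 94.4%, 88.4% and 85.3% of the genes tested, and the lower 3 exceeded 30.3%, 16.8% and 16.3%. Whether the authors' lengths include introns is not stated. Their median of 1917 bases is near the 2038 bases that protein-coding genes span in the RefSeq table, and a long intron would lower a gene's value.

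Genes of like course were sought over the 9 libraries, by the root mean square (RMS) difference in log2 CPM after each gene was centred on its own mean. A value of 0.25 means that the courses part by that much on the log2 scale in a typical library. Among 52233 genes averaging 1 CPM or more, Csa11g015700 had 316 others within 0.25, Csa11g072230 had 265, Csa05g079950 had 102 and Csa06g004330 had 24. Csa13g011780, which itself averaged under 1 CPM, and Csa17g034220 had 0. At 5 DPA counting error alone gave these 2 a CV of 39.1% and 36.0%, which adds to any RMS difference. The 0 therefore does not show that their courses lack a match. A gene of the 52233 typically had 6575 neighbours within 0.25 (median, with quartiles 251 and 15833). The counts moved by over 1.5 times when single libraries were left out. They were 192 and 1579 for Csa05g079950 without 5 DPA replicate 3 and 11 DPA replicate 1, 499 and 623 for Csa11g015700 without 5 DPA replicate 2 and 11 DPA replicate 1, and 435 for Csa11g072230 without 5 DPA replicate 3. Those of the other 3 are given with the effects of the processing.

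Csa11g015700 and Csa11g072230 were the closest pair of the 6, with an RMS difference of 0.186, and each was the nearest of all assayed factors to the other. They shared 160 of the genes within 0.25, which is 50.6% of those of Csa11g015700 and 60.4% of those of Csa11g072230. The next closest pair was Csa05g079950 and Csa11g015700 at 0.411, and they shared 2 such genes. The farthest apart were Csa05g079950 and Csa13g011780 at 1.13.

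The gene of the most similar course to Csa11g015700 was Csa05g033570, at an RMS difference of 0.0593, with 21.1 ± 1.10, 40.9 ± 3.22 and 78.1 ± 13.6 CPM at 5, 8 and 11 DPA (SD, n = 3). Next came Csa16g038860 at 0.0747. Both were among its 10 most similar genes in all 12 alternatives tried, which held for no other factor of the 6. For Csa05g079950 the nearest were Csa20g023480, at 0.123, and Csa04g008010, at 0.161. Csa04g008010 had 35.8 ± 2.35, 41.1 ± 0.342 and 98.1 ± 33.2 CPM, with the same flat start and the same spread at 11 DPA. Without 11 DPA replicate 1 it stood at rank 167, while Csa20g023480 came at rank 4.

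For Csa11g072230 the nearest genes were Csa15g015950 at 0.0880 and Csa03g031360 at 0.102. Csa15g015950 was also its match in level, with 1.53 ± 0.261, 2.79 ± 0.611 and 6.26 ± 0.5 CPM. With the first run alone they came at ranks 11 and 183. For Csa06g004330 the nearest were Csa11g074590 at 0.144 and Csa13g024590 at 0.172, which came at ranks 22 and 20 with the first run alone. Without 5 DPA replicate 2 Csa13g024590 came at rank 20 as well. Csa13g011780 and Csa17g034220 had no gene within 0.25 over the 9 libraries. For Csa17g034220 the nearest were Csa04g042660 at 0.296 and Csa19g028570 at 0.306, and for Csa13g011780 they were Csa10g003050 at 0.426 and Csa06g030070 at 0.476. Without 5 DPA replicate 1, where Csa13g011780 had no count, Csa10g003050 came at rank 368 and Csa06g030070 at rank 170, and Csa19g028570 came at rank 160 for Csa17g034220. The files give no name or role for any of these genes.

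**Figure D3:**
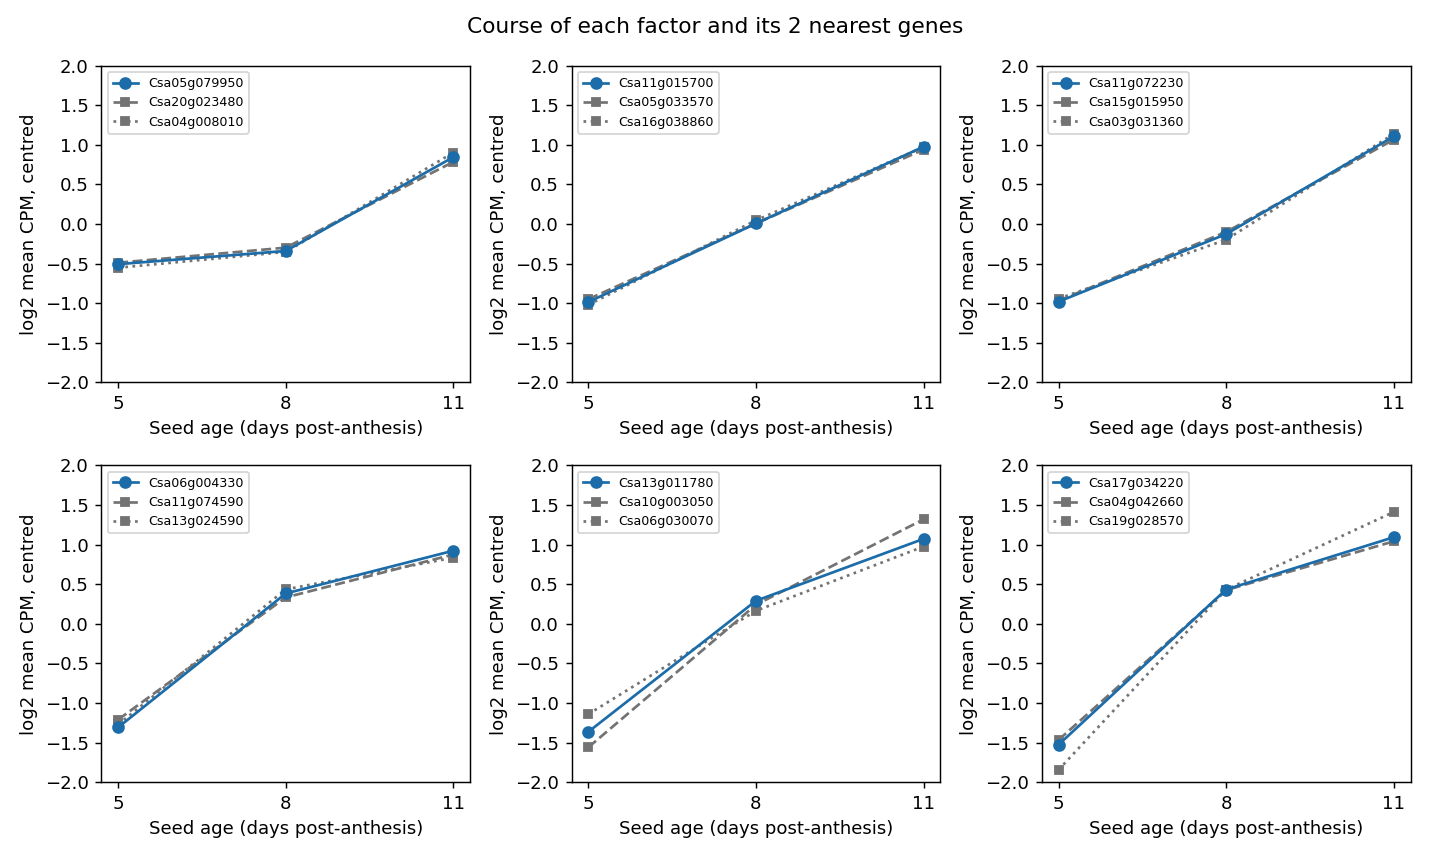
Log2 of the mean CPM at each age, centred on the mean of the 3 ages (y axis), against seed age (x axis), for each factor (blue circles) and its 2 genes of lowest RMS difference (grey squares). The curves of Csa11g015700 and its neighbours lie on each other. The RMS differences were 0.0593 and 0.0747 for Csa11g015700, and 0.426 and 0.476 for Csa13g011780. They are taken over the 9 libraries and so hold replicate spread that the drawn means do not show.

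In the DAP-seq data, 5 of the 6 factors had a peak list that could be used, 1 per factor and so without replicates. The lists held 620 peaks for Csa05g079950, 211 for Csa11g015700, 8083 for Csa11g072230, 92476 for Csa06g004330 and 72460 for Csa13g011780. In that order the authors' median −log10 q was 3.59, 2.22, 2.87, 10.1 and 7.66, where the lowest value listed is 2. Many peaks of Csa11g015700 thus lie near that limit. Among these 5, the scarce factors Csa06g004330 and Csa13g011780 had the longest lists. Csa05g079950, the most abundant per unit of length, had a longer list than Csa11g015700. A relation of seed level to list length was not tested, and the assayed proteins were made outside the plant. A list's length depends on how deeply it was sequenced, which is unknown here. All peaks had the same width, and the authors' central position was taken as the summit. The sources used here name no genome build.

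The lists differed in the spacing of their sites, which follows from how many peaks a list holds. The spacing that list length alone would give was not computed, so these values show no difference in arrangement. Neighbouring summits on a chromosome were a median of 3837 bases apart in the list of Csa06g004330 and 4919 in that of Csa13g011780, and 21.1% and 17.7% of neighbours were under 1000 bases apart. The median distance was 49685 bases for Csa11g072230, 592248 for Csa05g079950 and 1840530 for Csa11g015700. Each list reached all 20 chromosomes. Chromosome 11 held the most peaks in 4 of the 5 lists, with 8.05% to 11.1% of each. In the list of Csa11g015700 it was chromosome 7 with 16 peaks, and chromosome 13 held 1. These shares were not set against chromosome length, so they show no preference of a factor for a chromosome.

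The authors' signal has no stated unit and is compared only within a list. For Csa05g079950 its median was 38 and its highest value 450.3, at chromosome 2, bases 28480202 to 28480402. For Csa11g015700 the median was 20.0 and the highest value 193.0, at chromosome 5, bases 25548081 to 25548281. That strongest site also lay within 100 bases of a summit of Csa05g079950 and of one of Csa11g072230. For Csa06g004330 the strongest peak was at chromosome 6, bases 5288829 to 5289029, with a signal of 1088 against a median of 53.2.

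Csa11g015700 and Csa06g004330 had the highest share of sites in common. Of the 211 summits of Csa11g015700, 69 (32.7%, exact 95% interval 26.4% to 39.5%) had a summit of Csa06g004330 within 100 bases. Of the summits of Csa05g079950 it was 48 of 620 (7.74%, 5.76% to 10.1%), of Csa13g011780 5.43% (5.27% to 5.6%) and of Csa11g072230 3.29% (2.91% to 3.70%). The intervals cover counting error only and treat sites as independent. From the other side, the sites shared with Csa11g015700 were 79 of the 92476 summits of Csa06g004330, or 0.0854%.

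At the shared sites the summits nearly coincided. The median distance between the summits was 2 bases, and 42 of the 69 (60.9%) lay within 20 bases. For the summits of the other 3 lists near one of Csa06g004330, the median distance was 46.5 to 52.0 bases and 14.6% to 19.1% lay within 20 bases. At the shared sites the median signal of the nearest Csa06g004330 peak was 169, above 90.6% of its list, while for the other 3 lists that figure was 45.9% to 53.0%. A high figure was not limited to this pair. For Csa11g015700 summits near Csa11g072230 it was 95.7%, and near Csa05g079950 and Csa13g011780 it was 55.3% and 59.1%. For summits of the other lists near one of Csa11g015700 it ran from 64.5% to 92.9%. The 69 sites shared with Csa06g004330 lay on 19 chromosomes, and 13 of them were also near a summit of at least 1 of the other 3 lists. Among the 21 strongest peaks of Csa11g015700, 9 were near Csa06g004330 and 81.0% were near a summit of at least 1 of the other 4 lists. The study's sample of the Halo tag alone was not used here. Sites that the tag alone would give were thus not told apart from sites of the factors.

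**Figure D4:**
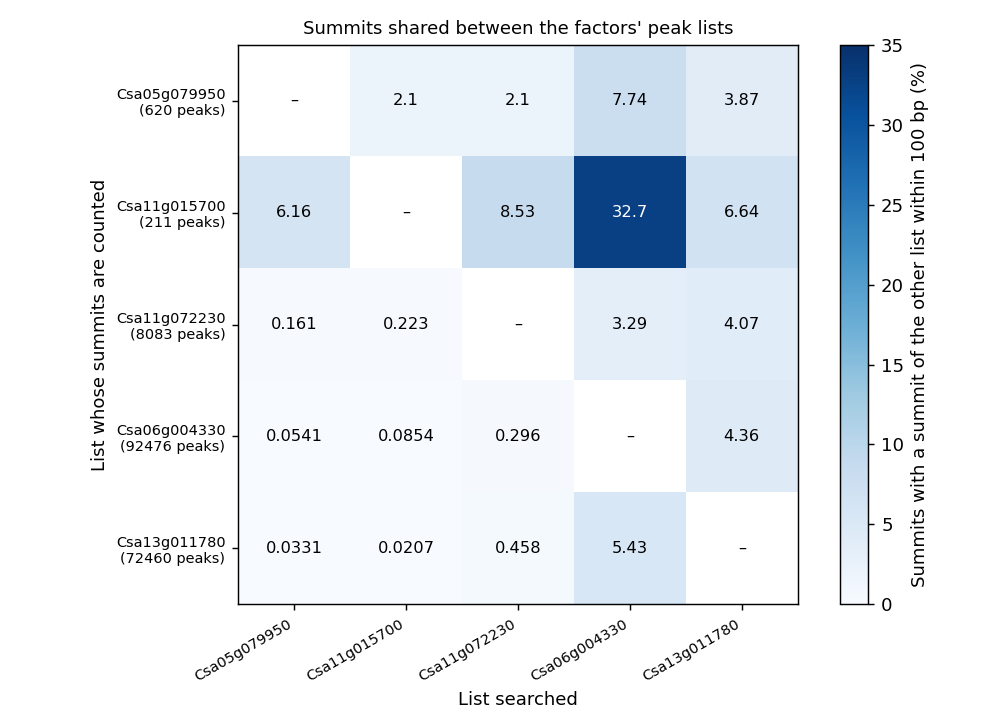
Percent of the summits of one list (rows) that have a summit of another list (columns) within 100 bases, for the 5 factors with a list. The highest value is that of Csa11g015700 searched against Csa06g004330, the longest list, at 32.7%. All other pairs are at or below 8.53%. A share can rise with the length of the list searched, and the shares of a long list searched against a short one are bounded by the short list's length.

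The shares of the other pairs were lower, but a share can rise with the length of the list searched. The pairs are therefore not ranked by how far their sites agree. Csa11g015700 had 13 summits (6.16% of its list) near the list of Csa05g079950, which holds only 620 peaks. Csa06g004330 and Csa13g011780, the long lists, shared 4032 summits, or 4.36% of the list of Csa06g004330, and 3938, or 5.43%, of that of Csa13g011780, a median of 50.0 and 49.0 bases apart. Csa11g072230, whose seed course was closest to that of Csa11g015700, had 18 summits near that list, 0.223% of its own, and they were 8.53% of the summits of Csa11g015700. Over all 5 lists, summits joined within 100 bases formed 167198 positions, of which 97.2% belonged to a single list, 4578 to 2 lists and 52 to 3. No position (0) belonged to 4 or more.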

How the data were processed

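The authors deposited whole-number counts per gene with a column per sequencing run, and a gene length in bases; the sources used here name no counting tool, strand use, build or annotation. The submitters' processing notes name Bowtie2 2.3.4.1 and HISAT2 2.0.4 without their role. The peak lists, event lists of GEM by the deposited names, hold the authors' score (at most 1000), a signal whose unit is not stated, and −log10 p and −log10 q values from the authors (q at least 2). Score, signal and −log10 values served only to rank or describe peaks in a list.

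Runs were summed to 9 libraries; runs differed by a chi-square per degree of freedom of 1.33 to 1.44 and replicates of an age, in first runs, by 1.96 to 21.2. Labels call replicates biological. Log2 changes came from edgeR 4.0.16 (TMM, filterByExpr, glmQLFit, all ages in 1 fit, Benjamini-Hochberg over 63017 genes; SE is the change over the root of F), checked on simulated counts. CPM use library totals. RMS used log2 CPM with prior count 2. Python 3.11.15 served peaks, intervals (exact Clopper-Pearson and Poisson) and figures. Named genes are all 6 factors, their 2 genes of lowest RMS difference and the nearest factor; the boundary factors of the ranking were named after their values were seen. Members and lists were chosen with earlier results of these data known. Alternatives were DESeq2 1.42.0, its size factors, no filter, 2 ages only, a block for replicate number, a 2-fold threshold, the first run alone, runs as deposited, each replicate left out, prior count 0.5, at least 5 CPM, and for peaks 50 and 200 bases and the higher-scoring 50%.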

Additional observations from a re-analysis of the deposited data

How the results depend on the processing

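No log2 change of the 6 factors changed sign in any of the alternatives tried. Of the 78 recomputed for each of 8 versus 5, 11 versus 8 and 11 versus 5 DPA, 76, 78 and 77 stayed within the spread between replicates. That spread is wide where replicates vary much, and leaving out 1 of 3 replicates can move a mean only in part of it. The counts are therefore a weak check. For Csa06g004330 the log2 change for 8 versus 5 DPA was 2.2 with the first run alone and ran from 1.35 to 2.12 with single libraries left out, and for 11 versus 5 DPA from 1.97 to 2.74. For 11 versus 5 DPA that of Csa13g011780 was 2.96 without 5 DPA replicate 2 and that of Csa17g034220 was 3.23 without 5 DPA replicate 3. The replicate number as a block gave 20861, 23941 and 35856 called genes in place of 22436, 25525 and 37159 for 8 versus 5, 11 versus 8 and 11 versus 5 DPA. Deviations of same-numbered libraries correlated at -0.068 to 0.183, and 4 of 18 library and age pairs matched best by number. The main fit used no pairing by number. With 3 libraries per age, this check cannot show whether the samples were paired. A 2-fold threshold left 10829, 11162 and 19177 called genes. With the first run alone, the level per length was 8.89 for Csa05g079950 at 8 DPA and 3.05 for Csa11g015700 at 5 DPA. Genes of like course numbered 48, 199 and 9 for Csa05g079950, Csa11g015700 and Csa06g004330 with the first run alone. With single libraries left out they ranged from 83 to 1579 for Csa05g079950, from 282 to 623 for Csa11g015700, from 260 to 435 for Csa11g072230, from 0 to 1 for Csa13g011780 and from 0 to 19 for Csa17g034220. For Csa06g004330 they ranged from 21 to 167, with 47, 167 and 51 without 5 DPA replicates 1, 2 and 3. For Csa17g034220 they were 19 and 5 without 5 DPA replicates 1 and 3 and 1 without 11 DPA replicate 1, and for Csa13g011780 1 without 5 DPA replicate 1. The share of summits near any other of the 5 lists was 7.90%, 3.50%, 2.44% and 3.02% within 50 bases for Csa05g079950, Csa11g072230, Csa06g004330 and Csa13g011780, and 21.0%, 14.1%, 8.62% and 10.6% within 200 bases. In all lists but that of Csa13g011780, 61.0% to 71.5% of peaks have the highest score of 1000, so the higher-scoring 50%, with ties ordered by signal, are there a choice by signal. With that 50% of each list it was 6.13%, 3.59%, 2.72% and 3.21%. For Csa11g015700 it was 54.5% within 200 bases and 60.0% with the higher-scoring 50%, where its share near Csa06g004330 was 41.0%; that share was 28.9% and 36.5% within 50 and 200 bases. The causes were not tested. At 5 DPA, Csa06g004330, Csa13g011780 and Csa17g034220 rest on 64, 30 and 35 counts, and their replicates varied beyond counting error, with a CV of 53.1%, 99.0% and 84.1% against 24.9%, 39.1% and 36.0% from counting.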

Other observations

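The sequencing runs of a library differed most for 2 scarce factors. The log2 ratio of the second to the first run, over 8 libraries, ran from -0.33 to 1.16 for Csa06g004330 (median 0.06) and from -0.62 to 0.95 for Csa17g034220 (median 0.28). For Csa13g011780 it ran from -0.33 to 0.42 (median 0.07, over the same libraries). For the other 3 factors it stayed between -0.30 and 0.31. The highest ratio of Csa06g004330 rests on 5 and 15 counts, in the first and second run of 5 DPA replicate 3. That of Csa17g034220 rests on 9 and 24 counts, in 8 DPA replicate 2. Counting error was not set against these ratios, so they show no trait of the factors.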
